A study of Mus musculus with 36 samples.

Results

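The 37 genes examined encode the glutathione S-transferases and the enzymes that make, recycle, use and break down glutathione, together with NQO1, thioredoxin reductase, sulfiredoxin and the transcription factor NRF2 (*Nfe2l2*). They were chosen by gene symbol, and all 37 were found among the 56748 genes measured by RNA-seq in epididymal fat, called visceral white adipose tissue (visWAT), and in liver of the same 18 male mice. *Mlkl* Adi-KO mice (C57BL/6J background) carry loxP-flanked alleles of *Mlkl*, which encodes the necroptosis effector MLKL, and an Adipo-Cre transgene active in mature adipocytes. Their WT littermates carry the same loxP-flanked alleles without Cre, so both genotypes share the floxed locus, and other cells of the fat pad and the liver keep *Mlkl*. The mice were 16 weeks old when feeding began and received normal chow diet (NCD, 4 Adi-KO and 4 WT) or high-fat diet (HFD, 5 Adi-KO and 5 WT) for 16 weeks. Values of single mice are listed below in the order of the mouse numbers, which are 165, 180, 182 and 183 for WT NCD, 166, 179, 197 and 199 for Adi-KO NCD, 154, 155, 161, 162 and 164 for WT HFD, and 151, 152, 153, 156 and 157 for Adi-KO HFD.

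Glutathione is a tripeptide whose synthesis starts at glutamate-cysteine ligase (*Gclc* catalytic, *Gclm* modifier subunit), and transferases couple it to electrophiles. The transferase encoded by *Gsta4* is known for its high activity on 4-hydroxynonenal, an aldehyde formed when lipids are oxidised, a reaction of interest in obese fat. NRF2 is held low by KEAP1 and, when released, switches on genes that carry an antioxidant response element, among them *Nqo1*, *Gclc*, *Gclm*, *Gsr*, *Txnrd1* and *Srxn1*, while liver is the classical site of high transferase expression.

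Sequences of the alpha class are shown first, because the course of *Gsta4* is set against its paralogs and reads of near-identical copies cannot be assigned with certainty. *Gsta4* (ENSMUSG00000032348) lies on chromosome 9 from 78090056 to 78116631 (GRCm39, plus strand). On the same chromosome lie *Gsta1* from 78137938 to 78149966 (plus), *Gsta2* from 78238300 to 78263070 (minus) and *Gclc* from 77661817 to 77701767 (plus). *Gsta3* lies on chromosome 1 from 21310813 to 21335885 (plus). The first 90 coding bases of each gene's canonical transcript in GENCODE vM39 are given 5′ to 3′, with capitals for bases other than those of *Gsta4*.
Gsta4: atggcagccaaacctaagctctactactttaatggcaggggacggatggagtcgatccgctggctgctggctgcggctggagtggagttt
Gsta3: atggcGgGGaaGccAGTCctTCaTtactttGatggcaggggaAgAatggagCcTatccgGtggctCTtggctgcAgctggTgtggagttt
Gsta2: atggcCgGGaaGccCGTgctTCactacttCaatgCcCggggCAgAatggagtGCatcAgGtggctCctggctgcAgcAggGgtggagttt
Gsta1: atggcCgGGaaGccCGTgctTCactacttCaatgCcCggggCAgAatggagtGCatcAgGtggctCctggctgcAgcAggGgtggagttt
In this stretch *Gsta3* differed from *Gsta4* at 21 bases, and *Gsta1* and *Gsta2* each differed from it at 23. Over the aligned coding sequence *Gsta4* was 70.2% identical to *Gsta3* and shared no stretch of 150 bases with *Gsta1*, *Gsta2* or *Gsta3*. *Gsta1* and *Gsta2* were 98.0% identical and *Gstp1* and *Gstp2* 98.1%. Of the 150-base stretches of the *Gsta1* transcript 14.1% were also in *Gsta2*, and 37.2% of those of *Gstp1* were in *Gstp2*, so the split of reads within these 2 pairs is uncertain, also for the levels given below. The 7 mu class genes, which lie side by side on chromosome 3, shared no such stretch.

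The 250 bases upstream of the canonical start of *Gsta4* and *Gsta3*, the 2 alpha genes that fell together in fat, are shown next, with capitals for the letters TGACNNNGC. This is 1 form of the core of the antioxidant response element, searched on both strands, and other forms were not searched. Its first letters TGAC also begin AP-1 and CRE sites.
Gsta4 (chr9:78098979-78099228, plus strand): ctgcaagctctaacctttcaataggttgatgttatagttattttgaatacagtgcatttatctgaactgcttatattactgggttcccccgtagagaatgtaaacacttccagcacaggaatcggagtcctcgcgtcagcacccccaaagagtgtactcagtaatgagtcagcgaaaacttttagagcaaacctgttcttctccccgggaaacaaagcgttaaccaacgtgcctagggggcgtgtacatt
Gsta3 (chr1:21310556-21310805, plus strand): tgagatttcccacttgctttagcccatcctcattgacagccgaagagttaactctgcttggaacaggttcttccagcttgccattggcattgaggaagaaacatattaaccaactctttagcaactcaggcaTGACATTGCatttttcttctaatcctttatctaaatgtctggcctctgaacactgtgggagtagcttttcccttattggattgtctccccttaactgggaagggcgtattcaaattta
*Gsta3* held 1 match, whose first base lies 118 bases upstream of the start, and the *Gsta4* window held none in these letters. The *Gsta4* window lies inside the span of the gene given above, which begins at 78090056. Bases upstream of that position were not searched. The *Gsta4* window does hold tgagtcagc, which differs from them in 1 letter, so the search does not tell whether *Gsta4* carries a related element. In windows from 250 bases before to 50 after the start, 6 of the 37 genes (16.2%) held the letters, beside 12.5% of the 21770 promoters of protein-coding genes. The others were *Gclm* (GCACCGTCA), *Txnrd1* (GCTTTGTCA), *Srxn1* (GCTAGGTCA) and *Ggt1* (GCTGGGTCA), on the opposite strand, and *Gstm5* (TGACCACGC). The share of the 37 genes is near that of all promoters, and a match in these letters is a description of sequence, not a binding site.

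Reads on genes ranged from 20875463 to 25530574 per liver library and from 21580696 to 30322171 per visWAT library. *Mlkl* itself was at 4.58 to 6.28 FPKM (a level scaled to gene length and library size) in visWAT of WT mice on HFD and at 2.32 to 2.72 in Adi-KO mice. On NCD the library labelled WT NCD mouse 182 was at 2.29 FPKM, inside the Adi-KO range of 1.96 to 2.49, and its values are given apart below. All 10 adipocyte markers were present in visWAT, and hepatocyte markers summed to 44909 FPKM or more in every liver library. In the visWAT library of WT NCD mouse 183, seminal vesicle transcripts summed to 258078 FPKM, and that of Adi-KO NCD mouse 179 had the highest sum of epididymis transcripts, 13.2 FPKM, and both are in the results with their group.

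Liver expressed most of these genes at higher levels than visWAT. In WT mice on NCD, 34 of the 37 genes differed between the tissues, 26 higher in liver and 8 higher in visWAT, where 65.5% of all genes tested differed, 34% higher and 31.5% lower in liver (limma on log2(FPKM + 1), adjusted p under 0.05). Among the 34, *Gsta1*, *Gsta2* and *Gstm3* reached the minimum mean for a test through liver alone and *Mgst2* through visWAT alone. Their calls state presence in a single tissue. Per kilobase of transcript, *Gstm1* led in liver at 2422 ± 170.1 FPKM (SD, n = 4), followed by the membrane-bound transferase *Mgst1* at 1763 ± 385 FPKM. In visWAT the highest levels were those of *Gpx3*, the secreted plasma peroxidase, at 477 ± 232 FPKM, and of *Gpx4*, which reduces lipid peroxides in membranes, at 414 ± 189 FPKM. The neighbours *Gstm1* and *Mgst1* in that order did not overlap in liver, while *Gpx3* and *Gpx4* in visWAT lay within each other's spread.

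The largest liver excess was that of the mu transferase *Gstm3*, at 79.4, 95.5, 675 and 84.2 FPKM in liver of mice 165, 180, 182 and 183 and at 0 to 0.0249 FPKM in visWAT (log2 difference 7.16, standard error 0.63). For a gene near 0 in visWAT the size of this difference on log2(FPKM + 1) reflects its liver level alone. *Gsta2* was at 35.0, 29.1, 84.4 and 27.9 FPKM in liver and at or below 0.0478 FPKM in visWAT. In both genes the library labelled mouse 182 was the highest in liver, and no visWAT value reached a liver value. Without it the difference of *Gstm3* was 6.41 log2. *Gstm6* was at 89.9, 94.2, 89.8 and 86.8 FPKM in liver and 3.28, 2.31, 3.19 and 2.25 in visWAT (log2 difference 4.61, standard error 0.11, adjusted p = 4.34e-09). *Gclc*, the rate-limiting subunit of glutathione synthesis, was at 157, 130.2, 178 and 132 FPKM in liver and 7.75, 7.63, 9.50 and 15.7 in visWAT (log2 difference 3.80, standard error 0.22, adjusted p = 1.42e-06). The tissues did not overlap in either gene.

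In the other direction, *Gpx3* was at 761, 526, 205 and 414 FPKM in visWAT of mice 165, 180, 182 and 183 and at 5.13, 4.06, 14.1 and 5.82 in liver (log2 difference −5.84, standard error 0.45, adjusted p = 8.3e-06). *Gpx8*, a peroxidase of the endoplasmic reticulum, was at 16.4, 14.4, 63.1 and 22.6 FPKM in visWAT and 0.519, 0.510, 2.07 and 0.538 in liver (log2 difference −3.80, standard error 0.46, adjusted p = 0.000113). Both were far higher in fat in every mouse, and without the library labelled mouse 182 the difference of *Gpx3* was −6.53 log2. The microsomal proteins *Mgst2* and *Mgst3* were also higher in visWAT, with *Mgst2* at 4.995, 6.93, 14.7 and 3.31 FPKM in visWAT and 0.0305 FPKM or less in liver. *Mgst3* was at 174, 171, 132 and 124 FPKM in visWAT and 19.1, 22.3, 42.9 and 21.9 FPKM in liver, so that no liver value reached a visWAT value in either gene. *Gsta4* was higher in liver (log2 difference 1.27, standard error 0.36, adjusted p = 0.0136), with overlap because the library labelled mouse 182 had 70.9 FPKM in visWAT. FPKM contain a scaling that differs between the tissues. On a TPM scale (all genes of a library summing to a fixed total) the median gene moved by −0.56 log2. The 37 genes then split 19 higher to 9 lower in liver, and *Gsta4* was at 0.65 (limma, adjusted p = 0.258). The visWAT libraries here include that of mouse 183 with the seminal vesicle transcripts, whose part in the move was not tested.

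On HFD the alpha transferases *Gsta4* and *Gsta3* fell in visWAT, and in WT mice by more than any other of the genes tested. In WT mice on NCD, *Gsta4* was at 23.2, 29.5, 70.9 and 20.9 FPKM in mice 165, 180, 182 and 183, and on HFD at 5.08, 3.02, 2.31, 5.31 and 2.85 FPKM in mice 154, 155, 161, 162 and 164. Every WT mouse on HFD was below every WT mouse on NCD, and the mean was 9.73-fold lower, or 6.61-fold without the library labelled mouse 182 (log2 difference −2.85, standard error 0.35, adjusted p = 0.000211, p = 0.00794 in an exact permutation test, two-sided, the lowest value for 4 against 5 mice). In Adi-KO mice *Gsta4* was at 50.1, 47.3, 43.5 and 55.5 FPKM on NCD and at 21.4, 12.7, 9.08, 30.3 and 28.2 FPKM on HFD. These diets did not overlap either, but Adi-KO mice 151, 156 and 157 on HFD lay within the range of WT mice on NCD (log2 difference −1.36, standard error 0.32, adjusted p = 0.00855).

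**Figure D1:**
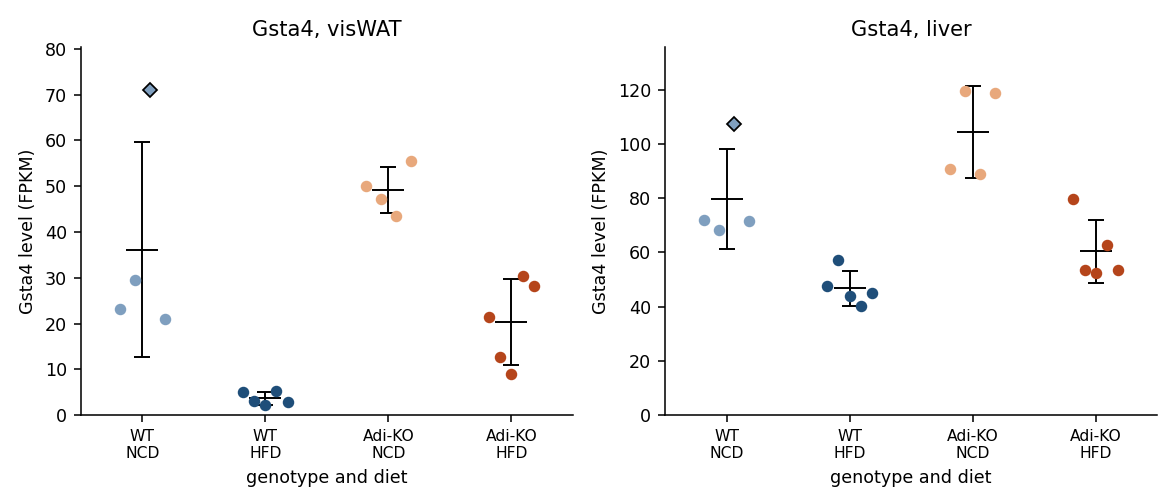
*Gsta4* level (FPKM) in each mouse by genotype and diet, in visWAT (left) and liver (right); points are mice, horizontal marks the mean and bars 1 SD, and the diamond is the library labelled WT NCD mouse 182. In visWAT the WT mice on HFD sit between 2.31 and 5.31 FPKM, below all other mice.

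*Gsta3*, the other alpha transferase with reads in fat, fell on HFD as well. In WT visWAT it was at 35.4, 50.8, 53.4 and 29.3 FPKM on NCD and 6.82, 4.97, 5.34, 8.09 and 7.10 FPKM on HFD (log2 difference −2.51, standard error 0.20, adjusted p = 1.18e-05). In Adi-KO visWAT it was at 41.5, 38.4, 30.2 and 40.6 FPKM on NCD and 7.68, 5.60, 5.44, 21.8 and 16.8 FPKM on HFD (log2 difference −1.82, standard error 0.38, adjusted p = 0.00496). NCD and HFD mice of a genotype did not overlap, and Adi-KO mice 151, 152 and 153 on HFD lay within the range of the WT mice on HFD. *Gsta1* and *Gsta2* were at or near 0 in all 4 visWAT groups, at 0.0563 FPKM or less on average, and were not tested there.

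The cell makeup of the fat moved with these results. Mature adipocyte markers summed to 10113 to 21737 FPKM in WT mice on NCD, 16785 to 20893 in Adi-KO mice on NCD, 4839.7 to 6258 in WT mice on HFD and 5519 to 12306 in Adi-KO mice on HFD, with all 10 of the 10 markers detected in each group. Macrophage markers, 10 of 10 detected, summed to 184 to 284, 244 to 429, 1801 to 2605 and 666 to 2370.0 FPKM in the same order. Adi-KO mice 152 and 153 on HFD had adipocyte sums of 5904 and 5519 FPKM, within the WT range on HFD, while mice 151, 156 and 157 were above it. In whole fat, fewer adipocytes and less RNA per adipocyte cannot be told apart.

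*Gsta4* was also expressed per 1000 FPKM of the adipocyte markers, a scale added after the values were seen. On it the WT mice on NCD were at 1.22 to 7.01, the highest being the library labelled mouse 182, and the Adi-KO mice on NCD at 2.48 to 2.82. The WT mice on HFD were at 0.422 to 0.864 and the Adi-KO mice on HFD at 1.65 to 2.47, so WT mice on HFD were below every other mouse. The log2 difference between the diets was −1.72 in WT mice (exact permutation test, p = 0.00794) and −0.30 in Adi-KO mice (exact permutation test, p = 0.0317). Without the library labelled mouse 182 the WT mice on NCD were at 1.22 to 1.59 and the difference between the diets was −1.14 (exact permutation test, p = 0.0357; 3 against 5 mice cannot go below 0.0179). Between genotypes on HFD it was 1.76 for *Gsta4* (exact permutation test, p = 0.00794). On NCD it was 0.34 (exact permutation test, p = 0.657), and 0.93 without the library labelled mouse 182 (exact permutation test, p = 0.0286, the smallest for 3 against 4). The genotype difference of *Gsta3* on HFD was −0.02 (exact permutation test, p = 0.968), with Adi-KO mice at 0.770 to 1.77 and WT mice at 0.975 to 1.29. The diet difference of *Gsta3* was −1.23 in WT mice (exact permutation test, p = 0.00794) and −0.91 without the library labelled mouse 182. It was −0.84 in Adi-KO mice (exact permutation test, p = 0.0238), and the genotype difference on NCD was −0.41 (exact permutation test, p = 0.286). All tests on this scale are two-sided and not adjusted.

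**Figure D2:**
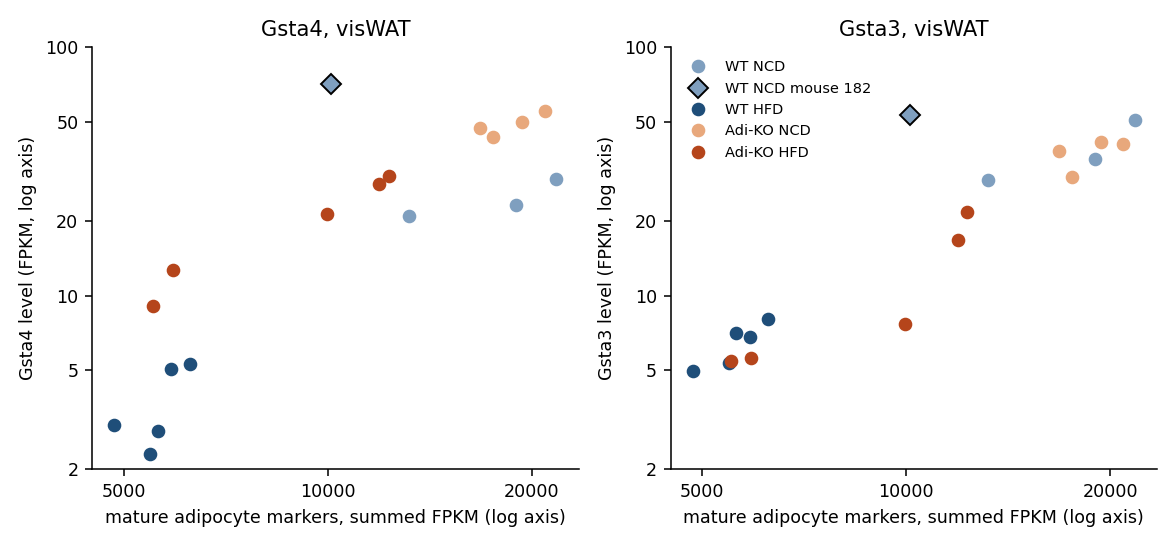
*Gsta4* (left) and *Gsta3* (right) in visWAT, in FPKM on a log axis, against the summed FPKM of 10 mature adipocyte markers on a log axis; each point is a mouse, coloured by genotype and diet, and the diamond is the library labelled WT NCD mouse 182. At like marker sums Adi-KO mice 152 and 153 on HFD lie above the WT mice on HFD for *Gsta4* and among them for *Gsta3*.

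Counting all 37 genes, 34 were tested in WT visWAT, and 15 differed between the diets, 4 higher and 11 lower on HFD. Of all genes tested 37.8% differed, 21.9% higher and 15.8% lower. In Adi-KO visWAT 14 of 34 differed, 5 higher and 9 lower, beside 43.7% of all genes, 23.3% higher and 20.3% lower. Counted in either direction, both shares are near the background, at 44.1% in WT and 41.2% in Adi-KO mice. By direction they are not, since falls outnumbered rises here in both genotypes and rises outnumbered falls among all genes. The median log2 difference of the genes tested was −0.48 in WT and −0.26 in Adi-KO mice, beside −0.01 and 0.01 for all genes. The direction in WT mice depends on the scale. On a TPM scale, which divides each library by its FPKM sum, the median of all genes moved by 0.43 log2 in WT and −0.01 in Adi-KO mice. In WT mice 8 of the genes then differed, 6 higher and 2 lower, the latter being *Gsta4* and *Gsta3*. The FPKM sum was 564718 in WT NCD mouse 183, the library with seminal vesicle transcripts, and 243503, 269807 and 309820 in mice 165, 180 and 182. The part of that library in the move was not tested. Without the libraries of mice 182 and 183 together, 23 differed, 6 higher and 17 lower.

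**Figure D3:**
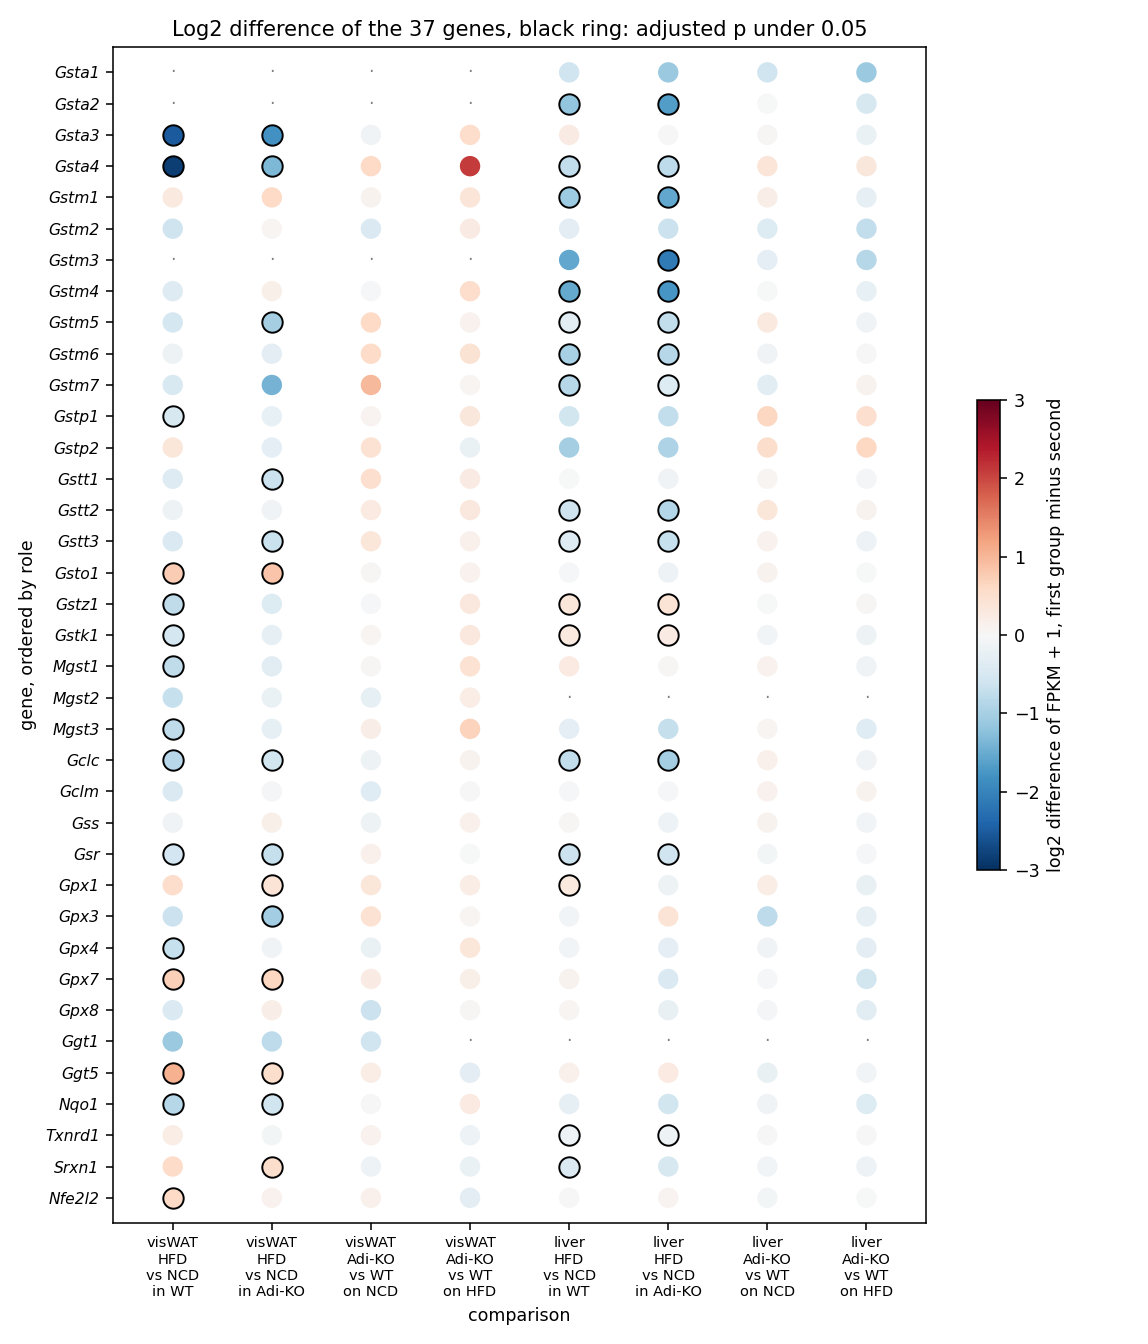
Log2 difference (FPKM + 1) of the 37 genes in the 8 comparisons of diet or genotype, 1 row per gene by role and 1 column per comparison; red is higher and blue lower in the first group, a black ring marks an adjusted p under 0.05 (limma), and a small grey dot a gene that was not tested. Rings stand in the 4 diet columns and in none of the 4 genotype columns.

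Among the NRF2 targets, *Nqo1*, a quinone reductase, was at 3.57, 3.56, 4.94 and 3.64 FPKM in WT mice on NCD and 1.59, 1.38, 1.76, 1.82 and 1.97 on HFD (log2 difference −0.86, standard error 0.10, adjusted p = 0.00014). *Gclc* was at 5.11, 4.75, 4.81, 5.08 and 5.48 FPKM in WT mice on HFD, below the NCD values given above (log2 difference −0.83, standard error 0.18, adjusted p = 0.00555). Its highest NCD value, 15.7 FPKM, is that of mouse 183 with the seminal vesicle transcripts. The difference of *Gclc* ran from −0.93 to −0.61 when single mice were left out. Both *Nqo1* and *Gclc* fell in every HFD mouse below the NCD range, and on a TPM scale neither passed the threshold (adjusted p = 0.0781 and 0.0802). *Nfe2l2*, which encodes NRF2, went the other way, from 15.0, 15.9, 14.6 and 13.3 FPKM on NCD to 20.9, 23.7, 24.8, 22.4 and 22.9 on HFD (log2 difference 0.61, standard error 0.08, adjusted p = 0.000212). In Adi-KO mice *Nfe2l2* was at 16.6 ± 0.276 FPKM on NCD (SD, n = 4) and 18.5 ± 2.76 FPKM on HFD (SD, n = 5), with overlap (log2 difference 0.14, adjusted p = 0.273).

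The targets moved in different directions. *Gsr*, which regenerates glutathione, fell in both genotypes, by 0.54 log2 in WT and 0.71 log2 in Adi-KO mice, and so did *Nqo1* and *Gclc*. On a TPM scale the fall of *Gsr* in WT mice did not pass the threshold either. *Srxn1*, which repairs oxidised peroxiredoxins, was at 10.03, 10.2, 8.84 and 9.63 FPKM in Adi-KO mice on NCD and 14.6, 18.2, 18.3, 10.8 and 11.8 on HFD, a rise without overlap (log2 difference 0.53, standard error 0.15, adjusted p = 0.0199). In WT mice *Srxn1* was at 8.69, 8.67, 26.6 and 7.08 FPKM on NCD and 15.1, 18.3, 18.9, 15.8 and 16.1 on HFD, where the library labelled mouse 182 was above all HFD mice and the other 3 below them (log2 difference 0.56, adjusted p = 0.191). *Gclm* was at 8.31 ± 3.51 and 5.56 ± 0.254 FPKM in WT mice on NCD and HFD, and *Txnrd1* at 8.44 ± 1.30 and 9.91 ± 0.576 FPKM (SD, n = 4 and 5). Neither *Gclm* nor *Txnrd1* passed the threshold in either genotype.

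**Figure D4:**
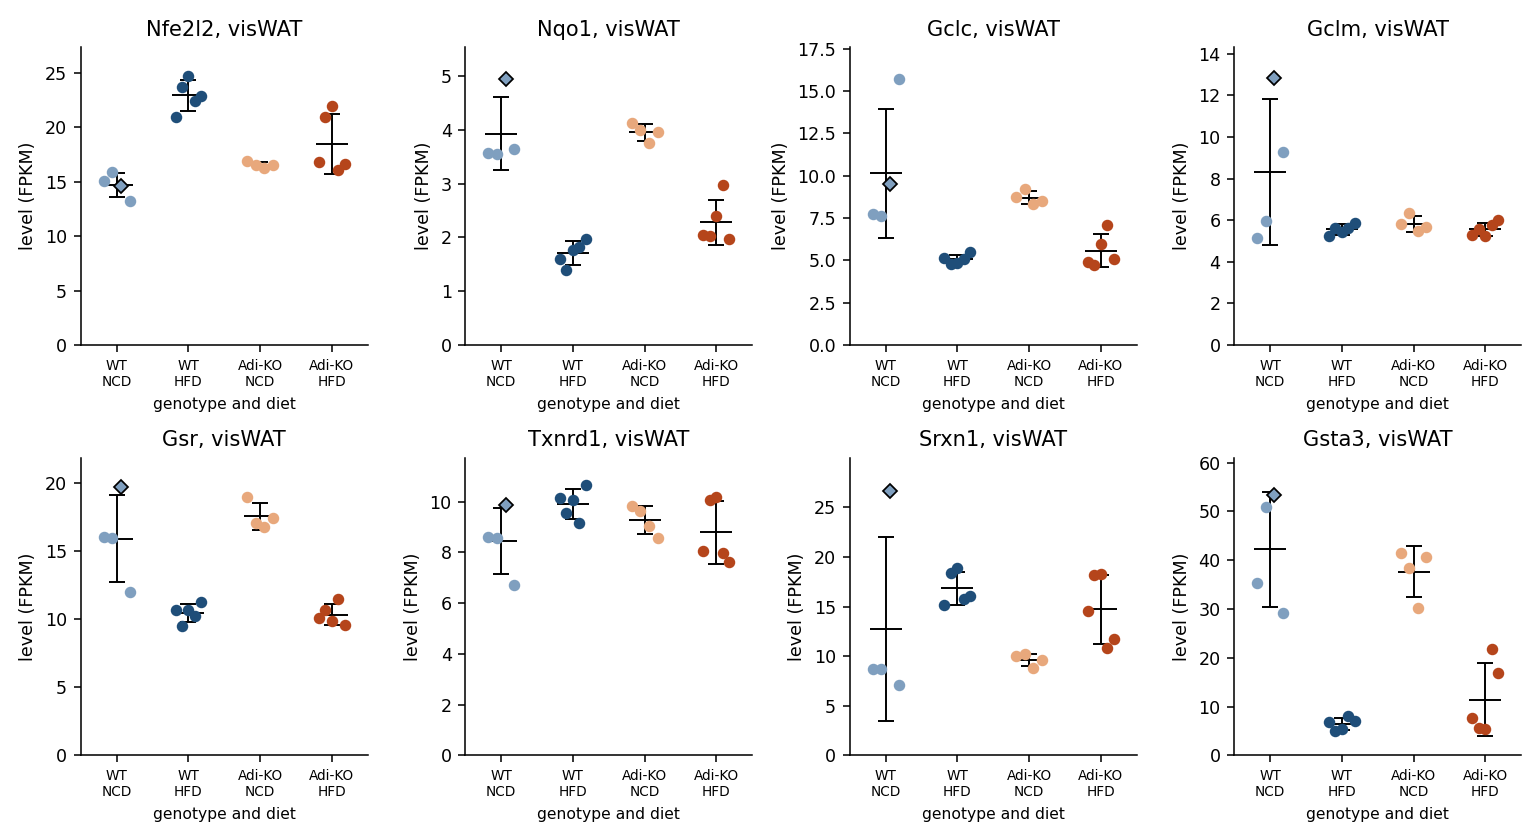
Levels (FPKM) of *Nfe2l2*, 6 of its target genes and *Gsta3* in visWAT by genotype and diet; points are mice, horizontal marks the mean and bars 1 SD, and the diamond is the library labelled WT NCD mouse 182. *Nqo1*, *Gclc* and *Gsr* are lower on HFD in both genotypes, while *Nfe2l2* is higher on HFD in WT mice.

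The genes that rose on HFD in visWAT of both genotypes were *Ggt5*, *Gsto1* and *Gpx7*. *Ggt5*, a gamma-glutamyl transferase that acts on leukotriene C4 and glutathione conjugates, went from 5.19, 4.69, 4.36 and 3.76 to 10.7, 10.5, 11.8, 8.97 and 10.6 FPKM in WT mice (log2 difference 1.07, standard error 0.10, adjusted p = 2.7e-05). The Adi-KO mice went from 5.21, 5.01, 5.46 and 5.93 to 8.22, 9.79, 10.7, 6.69 and 6.24 FPKM (log2 difference 0.52, standard error 0.14, adjusted p = 0.0158). The diets did not overlap in either genotype. *Gsto1*, the omega transferase, went from 19.9, 18.9, 30.0 and 15.2 to 31.9, 34.9, 37.5, 37.5 and 35.5 FPKM in WT mice. It went from 19.3, 18.2, 21.6 and 25.4 to 47.3, 34.7, 38.1, 39.7 and 35.3 FPKM in Adi-KO mice (log2 differences 0.77 and 0.86, adjusted p = 0.00542 and 0.000778). *Gpx7*, a peroxidase of the endoplasmic reticulum, went from 10.8, 10.7, 8.39 and 7.90 to 15.3, 17.0, 16.3, 17.8 and 14.3 FPKM in WT mice. In Adi-KO mice it went from 10.03, 10.7, 12.4 and 11.9 to 21.4, 16.7, 16.7, 17.9 and 18.4 FPKM (log2 differences 0.72 and 0.65, adjusted p = 0.000715 and 0.000732). For both genes all HFD mice of a genotype were above all its NCD mice.

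Other transferases and peroxidases fell in 1 genotype without passing the threshold in the other. In WT mice *Gstz1*, *Gstk1*, *Gstp1*, *Mgst1*, *Mgst3* and *Gpx4* fell, by 0.50 to 0.77 log2, with *Gpx4* close to the threshold (limma, adjusted p = 0.0491). On a TPM scale none of these falls in WT mice passed. In Adi-KO mice *Gstt1*, *Gstt3*, *Gstm5* and *Gpx3* fell, and *Gpx1* rose by 0.41 log2. *Gpx3* was at 561, 591, 584 and 629 FPKM in Adi-KO mice on NCD and 313, 257, 251, 433 and 225 on HFD, without overlap (log2 difference −1.04, standard error 0.18, adjusted p = 0.00197). *Gstm5* was at 25.3, 61.7, 18.8 and 23.0 FPKM on NCD and 15.9, 12.2, 11.01, 15.6 and 14.8 on HFD in these mice, the NCD value of 61.7 being that of mouse 179 with the epididymis transcripts (log2 difference −1.01, standard error 0.30, adjusted p = 0.0232). A difference between the genotypes in the diet response was not shown for any of them, since the limma test of the interaction called none of the 34 genes (0% of all genes called, 6 of the 34 and 1867 of all genes at an unadjusted p under 0.05, and none of the 34 by edgeR or DESeq2).

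Of 79 further genes of glutathione, thiol, NADPH and NRF2 pathways, 68 were tested in WT visWAT, where 20 rose and 15 fell on HFD (29.4% and 22.1%), beside 21.9% and 15.8% of all genes. In Adi-KO visWAT 69 were tested, of which 29 rose and 13 fell (42.0% and 18.8%), beside 23.3% and 20.3% of all genes. The largest changes were those of *Anpep*, an aminopeptidase of the glutathione breakdown route, from 4.80 ± 0.942 to 65.9 ± 11.2 FPKM in WT mice, *Hpgds*, the haematopoietic prostaglandin D synthase, from 0.665 ± 0.485 to 10.97 ± 2.27 FPKM, and *Hmox1*, heme oxygenase, from 15.8 ± 8.68 to 67.4 ± 12.8 FPKM (SD, n = 4 and 5). Their log2 differences were 3.53, 2.86 and 2.13 in WT and 2.41, 1.87 and 1.66 in Adi-KO mice, all past the threshold. *Tkt*, transketolase of the pentose phosphate pathway, fell by 1.83 log2 in WT mice and by 1.22 in Adi-KO mice, and the epoxide hydrolase *Ephx1* rose by 1.56 and 1.47. Of the 17 tested NRF2 control genes and further targets, 9 rose and 2 fell in each genotype. Their rising share was above the 21.9% (WT) and 23.3% (Adi-KO) of all genes, and their falling share below the 15.8% and 20.3%. Whether this set differs from all genes was not tested. *Hmox1* is 1 of those that rose, while *Nqo1*, *Gclc* and *Gsr* fell. Macrophages express *Hmox1* and *Hpgds* too, and the macrophage sums given above moved with them, whose part in the result was not tested.

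To ask whether loss of adipocyte MLKL alters these genes, the genotypes were compared within each diet. On HFD, *Gsta4* had the largest difference of the 33 genes tested, with the Adi-KO mice at 9.08 to 30.3 FPKM, 5.48 times the WT mean and without overlap, but it missed the threshold (log2 difference 2.10, standard error 0.33, adjusted p = 0.0998, exact permutation test, p = 0.00794, the smallest for 5 against 5). None of the 33 genes passed in limma (0.0215% of all genes did, and 11 of the 33 and 3003 of all genes had an unadjusted p under 0.05). Of the 33 genes edgeR on reads recovered from the FPKM called none and DESeq2 called *Gsta4* alone (adjusted p = 5.51e-09), which in limma also passed with all 4 groups in 1 fit (adjusted p = 0.0219) and without Adi-KO mouse 153 (adjusted p = 0.0338). Over the alternatives the adjusted p ran from 5.51e-09 to 0.381.

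On NCD, *Gsta4* averaged 49.1 ± 5.05 FPKM in the 4 Adi-KO mice (SD) and 36.1 ± 23.5 FPKM in the 4 WT mice, and the groups overlapped through the library labelled mouse 182 alone (log2 difference 0.60, standard error 0.34, adjusted p = 0.916). WT mice 165, 180 and 183 were at 23.2, 29.5 and 20.9 FPKM, below all 4 Adi-KO mice, and without the library labelled mouse 182 the Adi-KO mean was 2.001 times the WT mean (log2 difference 0.98, adjusted p = 0.281, exact permutation test, p = 0.0286, the smallest for 4 against 3). None of the 34 genes passed on NCD (0% of all genes did in limma, and 1 of the 34 and 528 of all genes had an unadjusted p under 0.05, and edgeR and DESeq2 called none of the 34). The genotype difference of *Gsta4* was larger on HFD by 1.49 log2 (95% interval 0.42 to 2.56, adjusted p = 0.326), which missed the threshold, so a difference between the diets was not shown.

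The log2 differences of *Gsta3*, *Gclc* and the NRF2 genes were smaller. On HFD *Gsta3* was 11.5 ± 7.41 FPKM in Adi-KO and 6.46 ± 1.29 FPKM in WT mice (log2 difference 0.56, 95% interval −0.22 to 1.33, adjusted p = 0.337), and *Gclc*, on the same chromosome as *Gsta4*, 5.56 ± 0.982 and 5.05 ± 0.290 FPKM (log2 difference 0.11, 95% interval −0.10 to 0.31). *Nfe2l2* averaged 18.5 ± 2.76 FPKM in the 5 Adi-KO mice (SD) and 22.9 ± 1.43 FPKM in the 5 WT mice (log2 difference −0.31, adjusted p = 0.221). *Nqo1* was 2.28 ± 0.421 and 1.70 ± 0.225 FPKM (log2 difference 0.27, adjusted p = 0.221). *Gclm*, *Gsr*, *Txnrd1* and *Srxn1* differed by 0.00, −0.02, −0.16 and −0.21 log2 on HFD, none past the threshold. The median of the 33 genes was 0.22 log2, beside −0.00 for all genes.

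In liver more of these genes fell than rose on HFD, *Gstm1*, *Gstm4*, *Gstm6*, *Gsta2*, *Gsta4*, *Gclc* and *Gsr* among them in both genotypes. In WT liver 35 of the 37 genes were tested and 16 differed, 3 higher and 13 lower on HFD, beside 25.3% of all genes, 13.2% higher and 12.1% lower. In Adi-KO liver 15 of 35 differed, 2 higher and 13 lower, beside 22.2% of all genes, 11.9% higher and 10.3% lower. Of the 7 mu transferases 5 fell in WT and 6 in Adi-KO liver, with median log2 differences of the class of −1.01 and −0.86. Outside the mu class 8 genes fell in WT and 7 in Adi-KO liver, and whether the class differs from the other genes was not tested.

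*Gstm1*, the most abundant transferase of the liver on NCD, went from 2494, 2168, 2510.2 and 2517 to 1043, 1002, 1065, 1237 and 1374 FPKM in WT mice. In Adi-KO mice it went from 2443, 2594, 2241 and 4065 to 823, 1165, 1008, 913 and 826 FPKM (log2 differences −1.09 and −1.55, adjusted p = 0.00018 and 0.000421). *Gstm4* went from 91.4, 92.1, 89.1 and 93.6 to 26.1, 32.3, 30.4, 31.6 and 35.5 FPKM in WT mice. Adi-KO mice went from 87.5, 92.2, 78.4 and 107 to 19.8, 30.9, 36.1, 22.4 and 23.2 FPKM (log2 differences −1.53 and −1.77, adjusted p = 7.93e-06 and 0.000184). Each HFD mouse was below each NCD mouse of its genotype in both genes, and the library labelled mouse 182 lay with the other WT mice on NCD. *Gstm6* went from 89.9, 94.2, 89.8 and 86.8 to 41.0, 40.2, 41.9, 53.2 and 47.0 FPKM in WT mice. The Adi-KO livers went from 68.6, 90.5, 95.3 and 76.1 to 34.0, 46.7, 44.9, 51.4 and 47.7 FPKM (log2 differences −1.01 and −0.86, adjusted p = 8.19e-05 and 0.00186), again without overlap. *Gstm3* went from 79.4, 95.5, 675 and 84.2 to 35.8, 53.1, 35.1, 53.1 and 74.0 FPKM in WT mice. In the Adi-KO group it went from 97.0, 217, 73.4 and 122 to 15.4, 53.6, 34.9, 19.6 and 22.1 FPKM, a fall past the threshold in Adi-KO mice (log2 difference −2.11, adjusted p = 0.0046). In WT mice the NCD value of 675 FPKM was that of the library labelled mouse 182, and the difference there was −1.56 log2 with adjusted p = 0.0871, although the diets did not overlap. Without that library it was −0.82 log2, from 86.4 ± 8.26 FPKM (SD, n = 3) to 50.2 ± 15.9 FPKM (SD, n = 5), with p = 0.0536 in an exact permutation test. *Gstm1* gave way to *Mgst1* as the most abundant of the 37 genes on HFD in both genotypes.

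**Figure D5:**
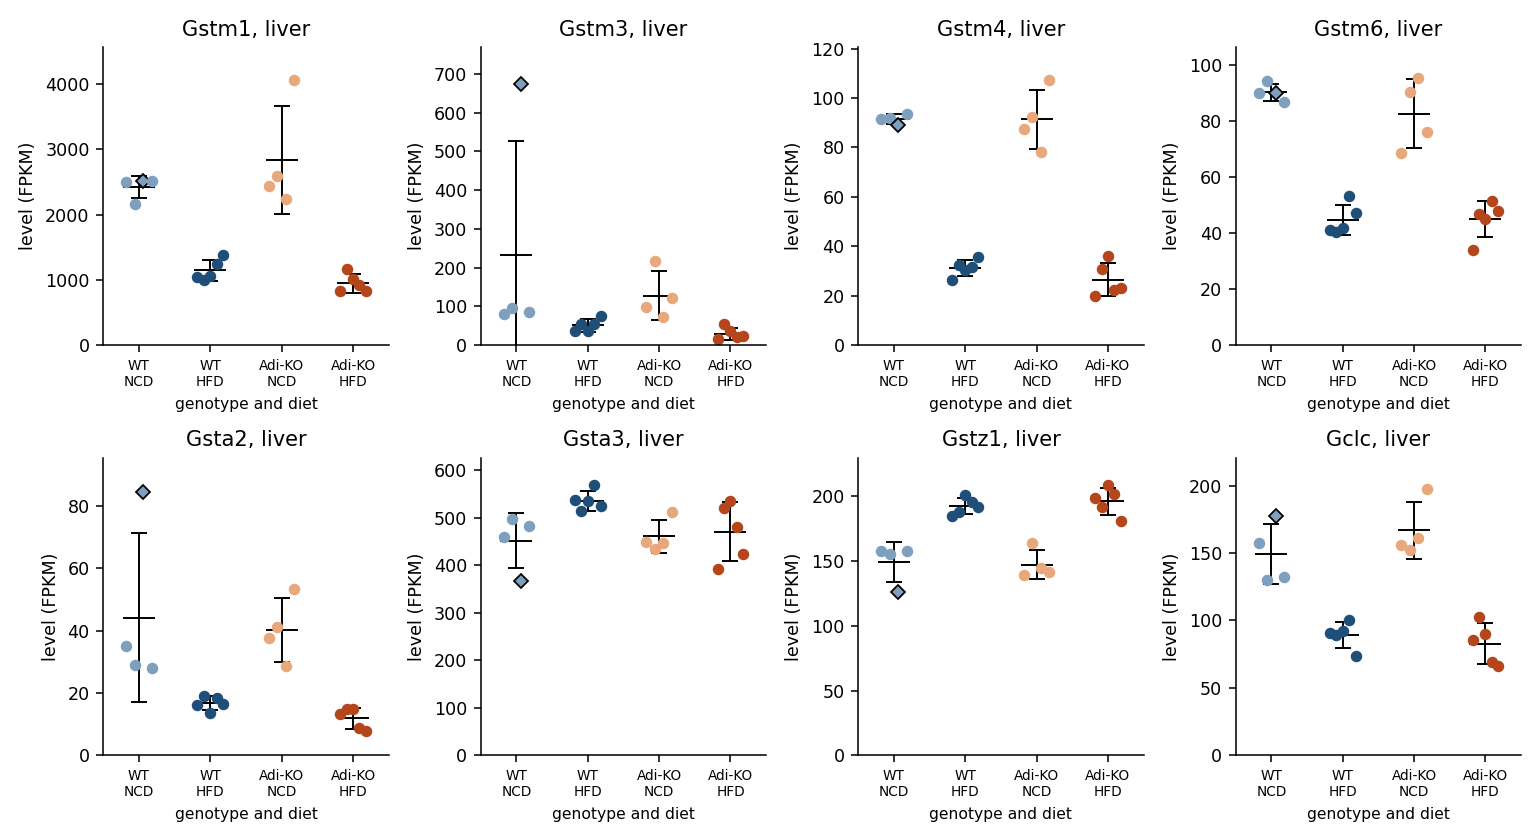
Levels (FPKM) of 8 genes in liver by genotype and diet; points are mice, horizontal marks the mean and bars 1 SD (bars that would pass below 0 end at the axis), and the diamond is the library labelled WT NCD mouse 182. *Gstm1*, *Gstm4*, *Gstm6*, *Gsta2* and *Gclc* are lower on HFD in both genotypes, and *Gstz1* is higher.

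The alpha class was split in liver. *Gsta2* went from 35.0, 29.1, 84.4 and 27.9 to 16.3, 19.1, 13.7, 18.4 and 16.5 FPKM in WT mice. In Adi-KO mice it went from 37.6, 41.0, 28.6 and 53.2 to 13.2, 14.8, 14.9, 8.74 and 7.84 FPKM (log2 differences −1.19 and −1.68, adjusted p = 0.0159 and 0.000874), and no HFD mouse reached an NCD mouse of its genotype. *Gsta4* went from 72.0, 68.1, 107 and 71.8 to 47.6, 57.3, 43.9, 40.2 and 45.2 FPKM in WT mice. Adi-KO mice went from 90.7, 119.6, 89.1 and 119 to 79.8, 53.4, 52.4, 62.7 and 53.6 FPKM (log2 differences −0.74 and −0.79, adjusted p = 0.00576 and 0.00484). The fall of *Gsta4* in liver was without overlap in each genotype. *Gsta3* was 452 ± 58.0 and 535 ± 20.9 FPKM in WT mice on NCD and HFD and 460.4 ± 35.1 and 470.1 ± 61.8 FPKM in Adi-KO mice (SD, n = 4 and 5), with log2 differences of 0.25 (adjusted p = 0.0667) and 0.02 (adjusted p = 0.903). *Gsta1* was 13.5 ± 21.3 and 4.09 ± 2.18 FPKM in WT mice on NCD and HFD (SD, n = 4 and 5). Its NCD values were 3.67, 2.12, 45.5 and 2.77 FPKM, and without the library labelled mouse 182 the NCD mean was 2.85 ± 0.775 FPKM (SD, n = 3), below the HFD mean, so 1 library turned the direction. Its reads cannot be fully separated from those of *Gsta2*.

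*Gstz1* rose in liver of both genotypes, as did *Gstk1*, whose call in Adi-KO liver was lost in 8 of 9 omissions of a mouse, without a filter and on a TPM scale. *Gstz1*, the zeta transferase that isomerises maleylacetoacetate in tyrosine breakdown, went from 158, 155, 126 and 158 to 185, 188, 201, 195 and 192 FPKM in WT mice. The Adi-KO livers went from 139, 164, 145 and 142 to 199, 192, 208, 202 and 181 FPKM (log2 differences 0.37 and 0.41, adjusted p = 0.00652 and 0.00291). *Gstk1*, the mitochondrial and peroxisomal kappa transferase, went from 97.4, 97.2, 89.1 and 98.3 to 114, 114, 117, 115 and 129 FPKM in WT mice. In the Adi-KO group it went from 84.8, 90.8, 95.3 and 82.2 to 100.1, 112, 118, 103 and 94.2 FPKM (log2 differences 0.30 and 0.25, adjusted p = 0.00432 and 0.0484). *Gstz1* did not overlap between diets in either genotype, and *Gstk1* overlapped in Adi-KO mice, where the adjusted p is close to the threshold.

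*Gpx1*, the cytosolic peroxidase, was at 98.6, 131, 112 and 103 FPKM in WT mice on NCD and 156, 131, 124, 144 and 129 on HFD, with overlap (log2 difference 0.30, adjusted p = 0.0498), a call that was lost in 8 of 9 omissions of a mouse and without a filter. Among the NRF2 targets *Gsr* fell by 0.63 log2 in WT and 0.61 log2 in Adi-KO liver, *Gclc* by 0.73 and 1.01, and *Txnrd1* by 0.17 and 0.16. *Srxn1* fell by 0.45 log2 in WT liver and differed by −0.51 in Adi-KO liver (adjusted p = 0.0572). *Nqo1*, *Gclm* and *Nfe2l2* did not pass the threshold in either genotype, with *Nfe2l2* at 29.9 ± 6.42 and 29.9 ± 2.61 FPKM in WT mice. Hepatocyte markers, 10 of 10 detected, summed to 59323 to 67477 and 44909 to 52038 FPKM in WT liver on NCD and HFD and to 63925 to 70142 and 49151 to 59759.6 FPKM in Adi-KO liver, lower on HFD, and their part in the falls was not tested.

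Of the 79 further pathway genes 65 were tested in liver, where 7 rose and 9 fell in WT and 5 rose and 11 fell in Adi-KO mice. That is 24.6% in each genotype, near the 25.3% and 22.2% of all genes. Among the 7 tested genes of the NADPH supply 4 fell in WT and 5 in Adi-KO liver and none rose, where 12.1% and 10.3% of all genes fell. *G6pdx*, which starts the pentose phosphate pathway, went from 6.18 ± 1.20 to 1.91 ± 0.374 FPKM in WT and from 8.83 ± 2.56 to 1.80 ± 0.614 FPKM in Adi-KO mice, and *Me1*, malic enzyme, from 201 ± 53.7 to 89.3 ± 31.2 and from 182 ± 28.0 to 53.1 ± 12.7 FPKM (SD, n = 4 and 5). Their log2 differences were −1.29 and −1.80 for *G6pdx* and −1.17 and −1.78 for *Me1*. *Chac1*, which degrades glutathione, rose in WT liver from 1.79 ± 0.375 to 9.75 ± 4.18 FPKM (log2 difference 1.86, standard error 0.27, adjusted p = 0.00119), and was 3.64 ± 1.10 and 3.87 ± 2.05 FPKM in Adi-KO liver (log2 difference −0.02, adjusted p = 0.973). The difference of this diet effect between genotypes was −1.89 log2 (adjusted p = 0.203).

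Between genotypes, none of the 35 genes tested in liver passed on HFD (0.197% of all genes did, and 15 of the 35 and 1664 of all genes had an unadjusted p under 0.05) or on NCD (0.00758% of all genes; 5 of the 35 and 574 of all genes). The interaction of genotype and diet passed in none either (0.0151% of all genes; 4 of the 35 and 811 of all genes at an unadjusted p under 0.05). These are limma fits, and edgeR and DESeq2 called none of the 35 genes in the 3 comparisons either. *Gstp2* did not overlap between genotypes on HFD, at 2.36, 2.59, 2.06, 1.13 and 1.67 FPKM in WT and 4.07, 2.76, 3.23, 2.84 and 4.998 FPKM in Adi-KO mice (log2 difference 0.63, standard error 0.17, adjusted p = 0.181), with the limit on its reads given above. *Gsta4* was 60.4 ± 11.6 FPKM in Adi-KO and 46.8 ± 6.44 FPKM in WT liver on HFD (log2 difference 0.35, adjusted p = 0.304) and 105 ± 16.9 and 79.8 ± 18.4 FPKM on NCD (log2 difference 0.40, adjusted p = 0.996). On NCD the WT mice other than the library labelled mouse 182 were at 72.0, 68.1 and 71.8 FPKM, below all 4 Adi-KO mice, a log2 difference of 0.55 without that library (adjusted p = 0.554, exact permutation test, p = 0.0286, the smallest for 4 against 3). The mean of *Gsta4* was thus higher in Adi-KO than in WT mice in both tissues and on both diets, and in none of these 4 comparisons did it pass the threshold in the limma fits within a diet. The genotype difference in liver changed by −0.05 log2 between the diets (95% interval −0.50 to 0.41).

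The diet effect was then compared between the tissues of WT mice. It differed in 15 of the 37 genes, higher in liver in 5 and higher in visWAT in 10. Of all genes 40% differed, 18.2% higher in liver and 21.8% higher in visWAT. The diet effect in liver minus that in visWAT was 2.76 log2 for *Gsta3* (adjusted p = 9.28e-08), which fell in fat, and 2.11 for *Gsta4* (adjusted p = 0.000585), which fell more in fat. It was 1.13 for *Gstz1* (adjusted p = 1.99e-05) and 1.05 for *Mgst1* (adjusted p = 0.0028). *Gstz1* was at 113, 130.4, 141 and 91.9 FPKM in visWAT on NCD and 69.1, 63.5, 65.5, 75.2 and 72.6 on HFD, falling there while it rose in liver. *Mgst1* was at 269.7, 345, 364 and 192 and 159.9, 167, 168, 172 and 164 FPKM in visWAT and at 1977, 1945, 1186 and 1941 and 2168, 1918, 2143, 2156 and 2082 FPKM in liver, where only the library labelled mouse 182 was far below the rest. In the opposite direction it was −1.39 for *Gstm1* (adjusted p = 4.77e-05) and −1.14 for *Gstm4* (adjusted p = 4.48e-05), the mu genes that fell in liver. In WT visWAT *Gstm1* was at 256, 237, 241 and 205 FPKM on NCD and 253, 289, 373, 335 and 220.1 on HFD, and *Gstm4* at 15.5, 14.3, 18.7 and 11.8 and 10.6, 10.3, 12.9, 12.8 and 9.27 FPKM, with overlap in both. *Gsta2* and *Gstp2* also passed, at −1.18 and −1.38 log2, where *Gsta2* has next to no reads in visWAT and the reads of *Gstp2* cannot be fully separated from those of *Gstp1*. *Gstp2* was at 1.06, 1.07, 0.630 and 1.35 and 2.43, 1.69, 1.54, 1.14 and 1.32 FPKM in visWAT and at 2.50, 2.01, 10.8 and 8.56 and 2.36, 2.59, 2.06, 1.13 and 1.67 FPKM in liver, and without the library labelled mouse 182 its difference was −0.94 (adjusted p = 0.0796). On a TPM scale the median of all genes moved by −0.39 log2. Then 12 of the genes differed, 2 higher in liver and 10 higher in visWAT, with *Gstz1* and *Mgst1* no longer past the threshold. The visWAT libraries on NCD include that of mouse 183 with the seminal vesicle transcripts, whose part in this move was not tested.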

How the data were processed

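Total RNA of epididymal fat and liver was sequenced after poly(A) selection, 1 library per mouse and tissue. The authors aligned paired reads to mm39 with HISAT2 and counted them per gene with featureCounts 1.5.0-p3 (per the submitters' notes). Strandedness, treatment of multi-mapped reads and the annotation release are not given in the sources used here. The deposited FPKM of 36 libraries carry a library scaling set by the authors, and the deposited counts of the genotype comparisons were used to recover whole reads from the FPKM, which came out whole (within 0.05 of a read) for 100% of values. Another 72 columns of normalised values per sample, the authors' fold changes and p-values and their pathway tables were not used. They hold the study's own findings.

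Differences were tested with limma 3.58.1 (R 4.3.3, moderated test with a mean trend) on log2(FPKM + 1), a scale that understates the change of low genes, for genes with a mean of at least 0.5 FPKM in the 2 groups compared, or in all groups for interactions, with Benjamini-Hochberg adjustment over all genes tested and a threshold of 0.05. Single genes were also tested with a two-sided exact permutation test over all splits of the mice, unadjusted. Other settings were a TPM scale, a pseudocount of 0.1, a minimum mean of 1 FPKM or none, edgeR 4.0.16 (quasi-likelihood) and DESeq2 1.42.0 on recovered reads, all 4 groups of a tissue in 1 fit, leaving out mice, a replicate block, and *Gsta4* and *Gsta3* relative to the adipocyte marker sum, the last added after seeing the data, as were its values and those of *Gsta1* and *Gstm3* in WT liver without mouse 182. The fits were tested on simulated data. Replicates are separate mice. No pair of libraries agreed within sampling noise (lowest chi-square per gene 9.82). Same-numbered libraries of liver and visWAT come from the same mouse, with correlations of their deviations from the group means from −0.05 to 0.22.

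The genes and lists were chosen with earlier results of these data known. Single-mouse values are given for *Gsta4* and, in each comparison, for up to 4 members past the threshold in each direction with the largest log2 difference and a mean of at least 1 FPKM. The paralogs, the named NRF2 targets and *Nfe2l2* are given by group in any case, and up to 4 pathway genes per comparison by the same rule. Other genes with values were chosen after seeing them. Sequences and motif matches are from GRCm39 and GENCODE vM39, in which all 37 genes lie on the same chromosome as in the deposited table. Only 5 of the 37 have the same start and end in both, and the windows were placed at the canonical starts of GENCODE.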

Additional observations from a re-analysis of the deposited data

Results flagged for a closer look

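The 87 gene and group pairs screened are only a part of all pairs of these genes and groups. In 12 of the 87, each with 4 or 5 mice, the highest or lowest mouse stood far from the rest of its group (Dixon's criterion), where chance gives about 1 in 20. The library labelled WT NCD mouse 182 was that mouse in 9 of them. In liver it was highest for *Gsta2* (84.4 FPKM), *Gsta4* (107 FPKM), *Gstm3* (675 FPKM) and *Mgst3* (42.9 FPKM) and lowest for *Gstk1* (89.1 FPKM), *Gstz1* (126 FPKM) and *Mgst1* (1186 FPKM). In visWAT it was highest for *Gpx8* (63.1 FPKM) and *Nqo1* (4.94 FPKM). Elsewhere *Gstm5* was 61.7 FPKM in visWAT of Adi-KO NCD mouse 179, *Gstm1* 2168 FPKM in liver of WT NCD mouse 180, the lowest of its group, and *Gstk1* 129 FPKM in liver of WT HFD mouse 164, the highest. Pairs outside the 87 also hold values far from their group. In the library labelled mouse 182, *Srxn1* was at 26.6 FPKM in visWAT (next 8.69) and *Gsta1* at 45.5 FPKM in liver (next 3.67).

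The diet effect of WT mice differed between the tissues in 15 of the 37 genes by the limma test of the interaction, a share near the 40% of all genes. The log2 effect in liver minus that in visWAT was 2.76 for *Gsta3*, 2.11 for *Gsta4*, 1.13 for *Gstz1*, 1.05 for *Mgst1* and 0.82 for *Gstk1*. In the other direction it was −1.39 for *Gstm1*, −1.38 for *Gstp2*, −1.18 for *Gsta2*, −1.14 for *Gstm4*, −1.01 for *Srxn1*, −0.91 for *Ggt5*, −0.84 for *Gstm6*, −0.80 for *Gsto1*, −0.59 for *Nfe2l2* and −0.39 for *Txnrd1*. All 15 relate 4 NCD to 5 HFD mice in each tissue, and the libraries of both tissues come from the same mice.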

How the results depend on the processing

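Of the recomputed counts of genes past the threshold, 120 of 121 with 1 mouse left out and 82 of 87 under other alternatives stayed within 1.5 times the reported count. In WT visWAT the 15 genes that differed between diets became 8 on a TPM scale, where only *Gsta4* and *Gsta3* were lower on HFD. They became 23 with DESeq2 and 23 without the libraries of mice 182 and 183. Between genotypes on HFD in visWAT, 1 gene (*Gsta4*) passed with DESeq2 and with all 4 groups in 1 fit, where none passed otherwise except without mouse 153. Leaving out 1 mouse at a time gave 14 to 20 genes for diet in WT visWAT, 13 to 16 in Adi-KO visWAT, 12 to 18 in WT liver and 12 to 16 in Adi-KO liver, 31 to 35 between tissues, 14 to 20 for tissue by diet, 0 to 1 for genotype on HFD in visWAT, and 0 for the other genotype and interaction comparisons. With the replicate block, the pairing of both tissues within a mouse, 34 genes differed between the tissues and 17 in their diet effect, and it changed no call of a gene named in these comparisons.

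Of the recomputed values of single genes, 432 of 459 with 1 mouse left out and 392 of 408 under other alternatives kept their direction and side of the threshold. The genotype by diet difference of *Gsta4* in liver, −0.05 log2, ran from −0.19 to 0.0278 when single mice were left out, above 0 without mouse 155, 179, 180 or 199. Calls were lost for *Gpx1* in WT liver and *Gstk1* in Adi-KO liver without a filter and in 8 of 9 omissions of a mouse each. They were also lost on a TPM scale for *Gstk1* in Adi-KO liver, for *Gclc* and *Nqo1* in WT visWAT and for *Gstz1* and *Mgst1* in tissue by diet, and under other settings for *Gsta2* in tissue by diet with edgeR and DESeq2, for *Gstp2* there without mouse 182 or 183, for *Gstm5* in Adi-KO visWAT without a filter, and for *Srxn1* there with all 4 groups in 1 fit or without mouse 197. The higher level of *Gsta4* in liver than in visWAT was lost on a TPM scale and without mouse 165, 180 or 183. The causes were not tested. Each TPM comparison that uses visWAT of WT mice on NCD includes mouse 183, whose FPKM sum was 564718 with the seminal vesicle transcripts. At the depth of these libraries *Gsta1*, *Gsta2* and *Gstm3* in visWAT had too few reads for a test.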

Other observations

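A few visWAT libraries stood apart for single genes. *Ggt1*, the gamma-glutamyl transferase of ducts and kidney, was at 43.8 FPKM in WT NCD mouse 183, the library with seminal vesicle transcripts, at 5.54 FPKM in Adi-KO NCD mouse 179 and at 1.51 FPKM in WT HFD mouse 154, and at 0.349 FPKM or less in the other visWAT libraries. *Gstm7* was at 40.3 FPKM in mouse 179 and 9.24 FPKM in mouse 154, and in the other visWAT libraries it was at 7.96 FPKM or less. Epididymis transcripts summed to 13.2 FPKM in mouse 179 and 1.10 FPKM in mouse 154. *Ggt1* reached the minimum mean in visWAT through these libraries, so it is among the genes counted as tested there, and it was called in none of those comparisons. No called difference of the report rests on these values. The fall of *Gstm5* in Adi-KO visWAT, where mouse 179 was the highest on NCD, stayed past the threshold in all 9 omissions of a mouse. Its log2 difference ran from −1.20 to −0.65 there (limma, adjusted p = 0.0104 to 0.0485).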
